A study of Rattus norvegicus with 8 samples.

Results

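The 10 genes described here encode the enzymes that make and break down polyamines and the proteins that set the amount of ornithine decarboxylase, namely Odc1, Amd1, Srm, Sms, Oaz1, Oaz2, Azin1, Sat1, Paox and Smox. They were taken by gene symbol from the probes of a rat liver microarray, control spots left out. A probe carried the symbol of 9 of the 10 genes, and all 9 were measured well enough to be tested, among 14923 genes tested in all. The 9 genes have 13 of the 30367 probes, of which 12 were tested. Paox, the peroxisomal oxidase of acetylated polyamines, had no probe under its symbol and was not analysed here.

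The livers came from 8 Wistar rat pups killed at 21 days of age. The 4 methyl donor deficient (MDD) pups, 2 male and 2 female, were born to dams whose food had neither vitamin B12 nor folates, from a month before pregnancy until weaning. The 4 control pups, 1 male and 3 female, were born to dams kept on standard food over the same time. The deficiency therefore spanned gestation and suckling and reached the pups through their dams, and whole liver was used, so that fewer cells of a type and less RNA per cell cannot be told apart.

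Polyamines are small positively charged molecules that bind RNA and DNA and that dividing and protein-synthesising cells need. Ornithine decarboxylase, the product of Odc1, makes putrescine from ornithine, and the spermidine and spermine synthases (Srm and Sms) extend it with aminopropyl groups. Those groups come from S-adenosylmethionine, the same methyl donor that folate and vitamin B12 help to regenerate through methionine, after the product of Amd1 has removed its carboxyl group. Antizymes (Oaz1 and Oaz2) bind ornithine decarboxylase and send it to the proteasome, and the antizyme inhibitor Azin1, an inactive relative of the enzyme, takes the antizymes away from it. In the other direction Sat1 acetylates spermidine and spermine for export or for oxidation by Paox, and Smox oxidises spermine directly to spermidine. Since antizymes, ornithine decarboxylase and Sat1 are strongly controlled in translation and protein turnover, an RNA level is not a measure of enzyme amount.

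The DNA immediately upstream of the transcription starts of Odc1 and Sat1, the 2 genes called in the comparison below, is shown first, because these are the regions from which the 2 transcripts that differed are initiated. The sequences are the 250 bases before the start in RefSeq's annotation of the GRCr8 rat genome, written 5′ to 3′ on the strand of the gene. Capitals mark GGGCGG on either strand, the core of the GC box that Sp-family factors bind. The Odc1 window is chr6:46058415-46058664 on the plus strand and the Sat1 window chrX:44007839-44008088 on the plus strand.
Odc1 upstream: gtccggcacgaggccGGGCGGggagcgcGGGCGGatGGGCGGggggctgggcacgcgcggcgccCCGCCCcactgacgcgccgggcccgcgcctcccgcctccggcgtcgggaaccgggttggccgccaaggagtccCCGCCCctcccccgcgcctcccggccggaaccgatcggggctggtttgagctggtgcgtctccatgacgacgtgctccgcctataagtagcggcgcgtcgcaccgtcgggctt
Sat1 upstream: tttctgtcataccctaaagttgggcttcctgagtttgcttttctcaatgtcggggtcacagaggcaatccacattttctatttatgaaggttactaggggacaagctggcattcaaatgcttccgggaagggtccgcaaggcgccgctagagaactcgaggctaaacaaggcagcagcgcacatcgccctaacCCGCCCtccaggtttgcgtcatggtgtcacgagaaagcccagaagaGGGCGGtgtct

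The Odc1 window is 78.0% G and C and holds 5 copies of GGGCGG, and the Sat1 window is 52.8% G and C with 2 copies. The median G and C share over the windows of all 33469 promoters was 51.2%, and 30.5% of them held GGGCGG at least once. Windows of 9 of the 10 genes were in the table, and 8 of the 9 held this motif, Smox being the one without it. The G and C shares of the 9 windows ran from 52.8% (Sat1) to 78.4% (Srm), all above the median. GGGCGG is made of G and C alone, and whether its frequency goes beyond those shares was not tested. The other motifs searched on both strands were TATAAA, found in Amd1 and Oaz1 and in 12.9% of all windows, and CACGTG, found in Srm and Oaz1 and in 5.59% of all windows. TGACGTCA was in none of the 9 windows and in 1.59% of all. None of these words contains another, and a match describes the letters of the window only.

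The transcripts themselves are read by the probes. Those of Sat1, Smox and Azin1 are printed to show which stretch the values below measure, and they are the designed oligonucleotides of the array. Their positions are those of the deposited files in the rn4 build. The Sat1 probe lies at chrX:61637834-61637893 on the plus strand and ends on the stop codon of the coding sequence, given in capitals, so that it reads the very end of the acetyltransferase. The Smox probe lies at chr3:119245527-119245586 on the plus strand and the Azin1 probe at chr7:74163105-74163164 on the minus strand.
Sat1 probe: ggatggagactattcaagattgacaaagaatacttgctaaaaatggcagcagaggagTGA
Smox probe: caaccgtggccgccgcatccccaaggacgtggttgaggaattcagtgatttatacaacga
Azin1 probe: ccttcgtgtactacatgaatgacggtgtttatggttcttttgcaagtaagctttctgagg

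The probes used for the other genes lie at chr6:41315531-41315590 for Odc1, chr20:44452568-44452627 for Amd1, chr5:165675614-165675673 for Srm, chrX:58870873-58870931 for Sms, chr7:10394495-10394554 for Oaz1 and chr8:69948767-69948824 for Oaz2. Whether each falls in coding or untranslated sequence was not analysed here. Amd1 is spotted 10 times on the array and the other probes once.

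The comparison asked which genes of polyamine turnover differ in liver between pups of deficient and of standard-fed dams. In MDD livers Odc1, which starts synthesis, and Sat1, which starts breakdown, were both higher, each by 1.51-fold. No gene of the set was called lower. The antizymes and the antizyme inhibitor all had negative differences, between -0.25 and -0.21 on the log2 scale, that did not pass the test. Each gene was fitted with limma for diet and for dye, with the array as a random block, and was called at a Benjamini-Hochberg adjusted p under 0.05 over all 14923 genes.

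Among the 9 genes 2 were called, both higher (22.2%), against 11.1% of all genes tested. Over all genes 4.51% were called higher and 6.55% lower in MDD livers. Of the 9 genes 5 had an unadjusted p under 0.05, against 27.6% of all genes. The median difference of the 9 genes was -0.11 on the log2 scale, MDD minus control, with 4 positive and 5 negative values, while the median over all genes was 0.01 and 51.8% of genes were positive. By role, 1 of 4 synthesis genes, 0 of 3 regulators and 1 of 2 catabolic genes were called, with median log2 differences of 0.05, -0.25 and 0.44. A single gene makes up 11.1% of the 9, as large a share as the background, so the counts alone do not set these genes apart. Leaving out MDD replicate 2 gave 6 called genes, and leaving out MDD replicate 4 or any 1 of the controls gave 1. Fitted singly, 2 of the 12 probes of these genes were called, against 11% of all probes. Dams and litters were not given, so littermates may be among the animals, and the p-values speak of the spread among these 8 pups alone. In the title codes, whose meaning is not stated, the 2 MDD males (replicates 2 and 4) share a letter, and so do control replicates 1, 2 and 3. Sex and a shared code letter therefore cannot be told apart within the MDD group.

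**Figure D1:**
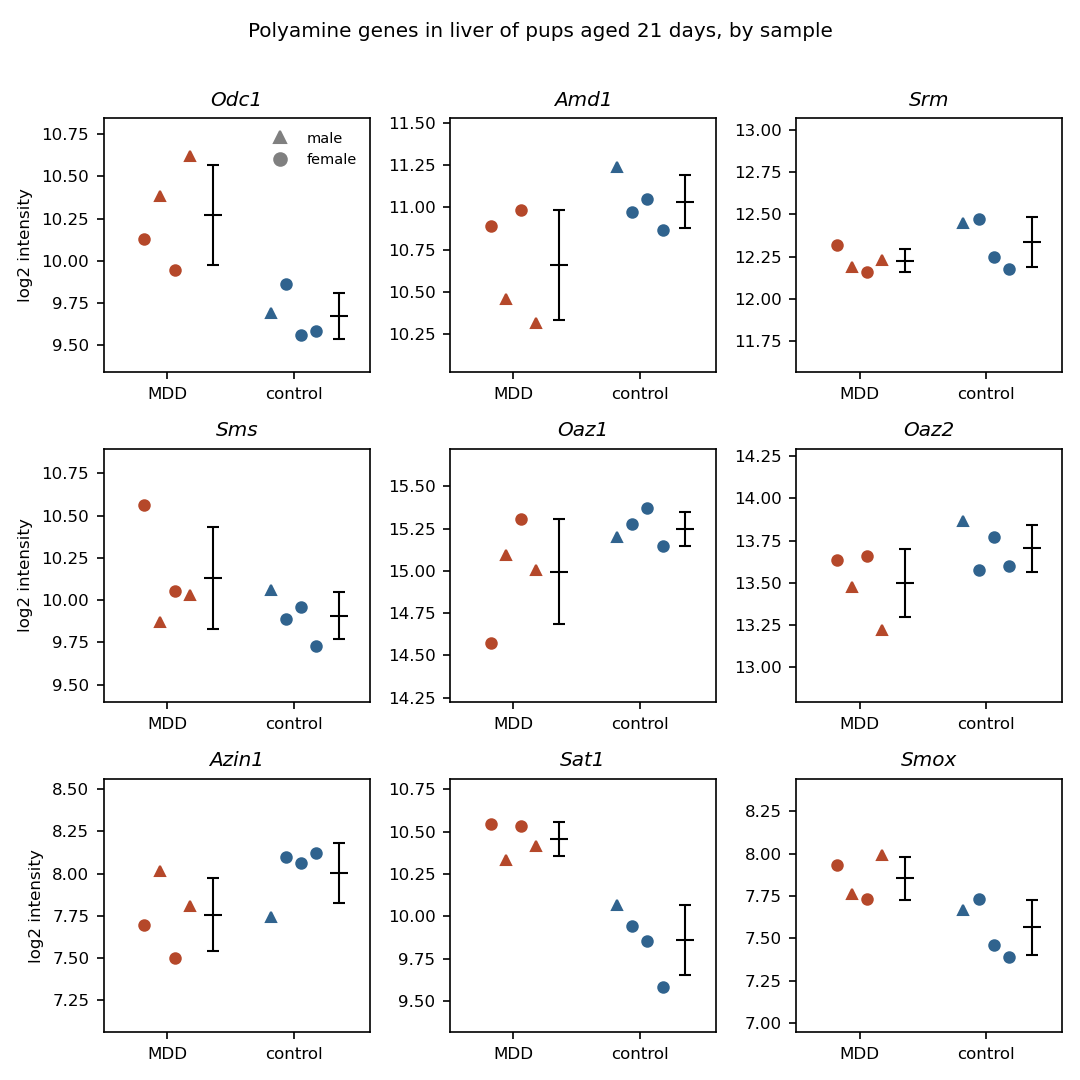
Log2 intensity of each polyamine gene in each liver, MDD pups left (red) and control pups right (blue) in every panel, triangles for males and circles for females, with the mean and SD of 4 animals as a black bar. Every panel spans the same number of log2 units around its own centre, and heights are not comparable between genes. All 4 MDD livers lie above all 4 control livers for Odc1 and for Sat1, and the groups overlap in the other 7 panels.

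The plot of levels by animal shows that Odc1 and Sat1 are the genes whose groups do not overlap at the probe used for each gene. Such a separation with MDD above control was seen in 5.4% of all genes and the reverse in 5.91%.

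**Figure D2:**
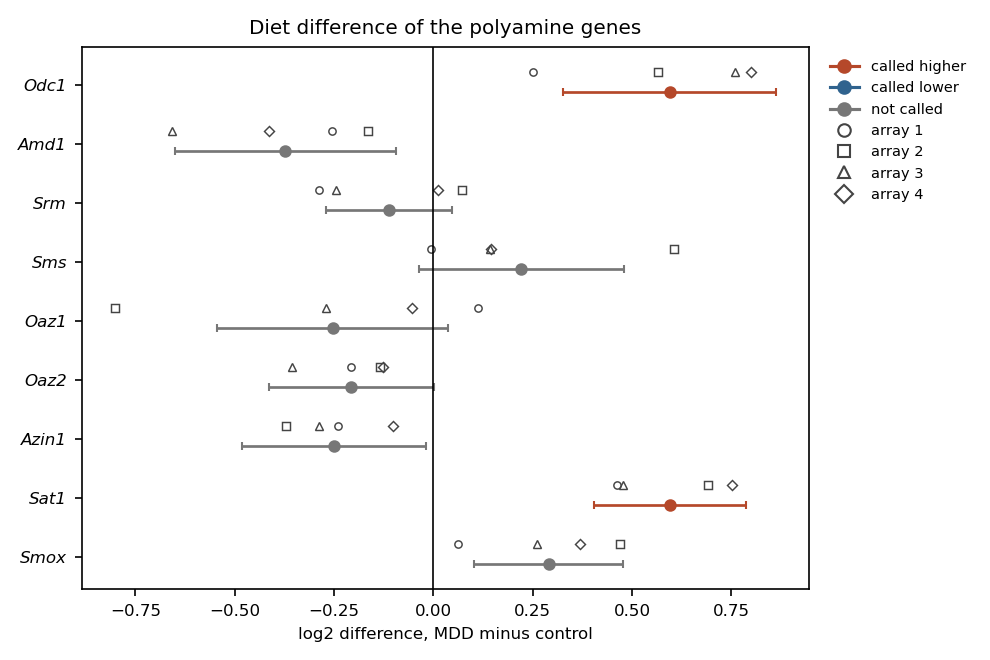
Log2 difference, MDD minus control, of each polyamine gene with its 95% confidence interval from limma (filled points and bars), and the ratio on each of the 4 arrays (open symbols, 1 MDD and 1 control liver per array). The intervals of Odc1 and Sat1 begin at 0.33 and 0.40. The arrays agree in sign for Odc1, Sat1, Smox, Amd1, Oaz2 and Azin1.

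Odc1 encodes the first enzyme of the pathway. Its log2 level was 10.13, 10.38, 9.94 and 10.62 in MDD replicates 1 to 4, against 9.69, 9.86, 9.56 and 9.58 in control replicates 1 to 4. The lowest MDD liver was thus just above the highest control liver, and the 2 male MDD pups, replicates 2 and 4, had the 2 highest values. The means were 10.27 ± 0.30 in MDD livers and 9.68 ± 0.14 in control livers (SD, n = 4 each). Odc1 rose by 0.59 ± 0.12 (SE) on the log2 scale, a 1.51-fold difference with a 95% confidence interval of 1.25 to 1.82 (limma adjusted p = 0.0173). Of all genes tested 5.74% differed by more than this in either direction.

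The Odc1 ratio was positive on 4 of 4 arrays and ranged widely, at 0.25, 0.57, 0.76 and 0.80 on arrays 1 to 4. The call was often lost when a single animal was left out. Without MDD replicate 4 the adjusted p was 0.0505 and the difference 0.45. With control replicates 1 to 4 left out in turn, the adjusted p was 0.0604, 0.0706, 0.0962 and 0.0558. There the difference was 0.63, 0.58, 0.59 and 0.56, so that the size was kept. The call was kept without MDD replicate 1 (adjusted p = 0.0174), 2 (0.0219) or 3 (0.00918). Why it was lost in the other fits was not tested. Without array 3 the difference was 0.47 (adjusted p = 0.103) and among the females alone, 2 MDD and 3 control, it was 0.33 (adjusted p = 0.253). With the array as a fixed block, which sets each MDD liver against the control liver on its array, the adjusted p was 0.0644, and with no block it was 0.0956, so that the call was lost in both. With sex as a term the difference was 0.53 (adjusted p = 0.0344). Whether the diet difference depends on sex was not tested, there being 1 control male.

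Amd1 encodes S-adenosylmethionine decarboxylase, the step at which the methyl donor is committed to polyamines. Its log2 level was 10.89, 10.46, 10.98 and 10.31 in MDD replicates 1 to 4, against 11.24, 10.97, 11.05 and 10.87 in control replicates 1 to 4. The male MDD pups, replicates 2 and 4, lay below all controls and the female MDD pups lay within the control range. The 9 or 10 spots of Amd1 in a sample had SDs between 0.0829 and 0.187, which is the spread within a sample and not between animals. The difference of -0.37 ± 0.12 did not pass the threshold (limma adjusted p = 0.0867), with a 95% confidence interval of -0.65 to -0.09.

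The Amd1 ratio was negative on all 4 arrays, at -0.26, -0.16, -0.66 and -0.41. It passed the threshold without MDD replicate 3 (-0.50, adjusted p = 0.0319), with loess normalization alone (adjusted p = 0.0354) and with sample weights (adjusted p = 0.0197), and it was -0.04 among females.

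Srm and Sms, the 2 aminopropyl transferases, were not called. Srm had a log2 level of 12.32, 12.19, 12.16 and 12.23 in MDD replicates 1 to 4, against 12.45, 12.47, 12.25 and 12.18 in the controls. The MDD livers lay close together, around the 2 lower controls. Its difference was -0.11 ± 0.07 (limma adjusted p = 0.341), with a 95% confidence interval of -0.27 to 0.05. A further Srm probe gave -0.15 ± 0.12 in the fit of all probes (adjusted p = 0.441), with a wider interval of -0.41 to 0.11.

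Sms had a log2 level of 10.56, 9.87, 10.06 and 10.03 in MDD replicates 1 to 4, against 10.06, 9.89, 9.96 and 9.73 in control replicates 1 to 4. MDD replicate 1 stood above all other livers and the remaining MDD values lay among the controls. The difference was 0.22 ± 0.11 (limma adjusted p = 0.245), with ratios of -0.01, 0.61, 0.14 and 0.14 on arrays 1 to 4. Another Sms probe gave 0.22 ± 0.08 (adjusted p = 0.107) and was not called. It was positive on 4 of 4 arrays, and all its MDD values lay above all its control values. The remaining probe was well above background in 0 of 8 samples and was left out. Without MDD replicate 1 the difference at the probe used was 0.09 (adjusted p = 0.524) and without array 2 it was 0.11 (0.519). Sms was called without MDD replicate 2 (0.35, adjusted p = 0.0263) and without array 4 (0.34, adjusted p = 0.0461).

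The 3 regulators of ornithine decarboxylase had negative differences and none was called, with 1 of 3 at an unadjusted p under 0.05. Oaz1, the main antizyme, whose synthesis requires a ribosomal frameshift that polyamines promote, had a log2 level of 14.57, 15.09, 15.31 and 15.01 in MDD replicates 1 to 4. The controls were at 15.20, 15.28, 15.37 and 15.14. MDD replicate 1 alone stood well below the rest, and its array gave a ratio of -0.80 while the other 3 arrays gave 0.11, -0.27 and -0.05. The difference was -0.25 ± 0.13 (limma adjusted p = 0.239). It was -0.09 without MDD replicate 1 (adjusted p = 0.583), -0.07 without array 2 (0.755) and -0.16 without array 3 (0.766). It passed the threshold without MDD replicate 2 (-0.39, adjusted p = 0.0469) and without array 4 (-0.44, adjusted p = 0.0360).

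Oaz2, a relative of Oaz1 with the same action, had a log2 level of 13.64, 13.47, 13.66 and 13.22 in MDD replicates 1 to 4, against 13.87, 13.58, 13.77 and 13.60 in control replicates 1 to 4. Each MDD liver was below the control liver on its own array, with ratios from -0.36 to -0.13, while the groups as a whole overlapped. The difference was -0.21 ± 0.09 (limma adjusted p = 0.183), and it was -0.13 without MDD replicate 4 (0.528) and -0.00366 among females (0.991). The other Oaz2 probe, whose 60 bases the files place over a span of 966 bases at chr8:69945396-69946361, gave -0.13 ± 0.10 (adjusted p = 0.429).

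Azin1, which frees ornithine decarboxylase from the antizymes, had a log2 level of 7.70, 8.02, 7.50 and 7.81 in MDD replicates 1 to 4, against 7.74, 8.10, 8.07 and 8.12 in control replicates 1 to 4. The 3 female controls lay close together above all MDD livers, and the male control was among the MDD values. The difference was -0.25 ± 0.10 (limma adjusted p = 0.150), negative on all 4 arrays. It was -0.50 among females (adjusted p = 0.161) and passed the threshold without MDD replicate 2 (-0.33, adjusted p = 0.0318).

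On the catabolic side Sat1, the acetyltransferase that limits polyamine breakdown and export, was called under more settings than any other gene of the set. Its log2 level was 10.55, 10.33, 10.53 and 10.42 in MDD replicates 1 to 4, against 10.07, 9.94, 9.85 and 9.58 in control replicates 1 to 4. All MDD livers were above all controls with a clear gap between the groups, and the 2 female MDD pups, replicates 1 and 3, were above the 2 males. The means were 10.46 ± 0.10 in MDD livers and 9.86 ± 0.21 in control livers (SD, n = 4 each). Sat1 rose by 0.60 ± 0.08 (SE), 1.51-fold with a 95% confidence interval of 1.32 to 1.73 (limma adjusted p = 0.00515).

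The Sat1 ratio was 0.46, 0.69, 0.48 and 0.75 on arrays 1 to 4. It was called under 24 of 26 other settings, with differences between 0.50 and 0.69. The exceptions were the fit without array 3 (0.59, adjusted p = 0.0707) and that of females alone (0.69, adjusted p = 0.119). The size was kept in both, and why the call was lost was not tested. Without array 1 Sat1 was called (0.60, adjusted p = 0.0215).

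Smox, the spermine oxidase, also had a positive difference. Its log2 level was 7.93, 7.76, 7.73 and 7.995 in MDD replicates 1 to 4, against 7.67, 7.73, 7.46 and 7.39 in control replicates 1 to 4. The highest control, replicate 2, was level with the lowest MDD liver, replicate 3, which is where the groups overlap. The difference was 0.29 ± 0.08, 1.22-fold (limma adjusted p = 0.0575), positive on 4 of 4 arrays at 0.06, 0.47, 0.26 and 0.37. It passed the threshold without MDD replicate 2 (0.33, adjusted p = 0.0245), without array 4 (0.32, adjusted p = 0.0455) and with sample weights (0.35, adjusted p = 0.0175).

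**Figure D3:**
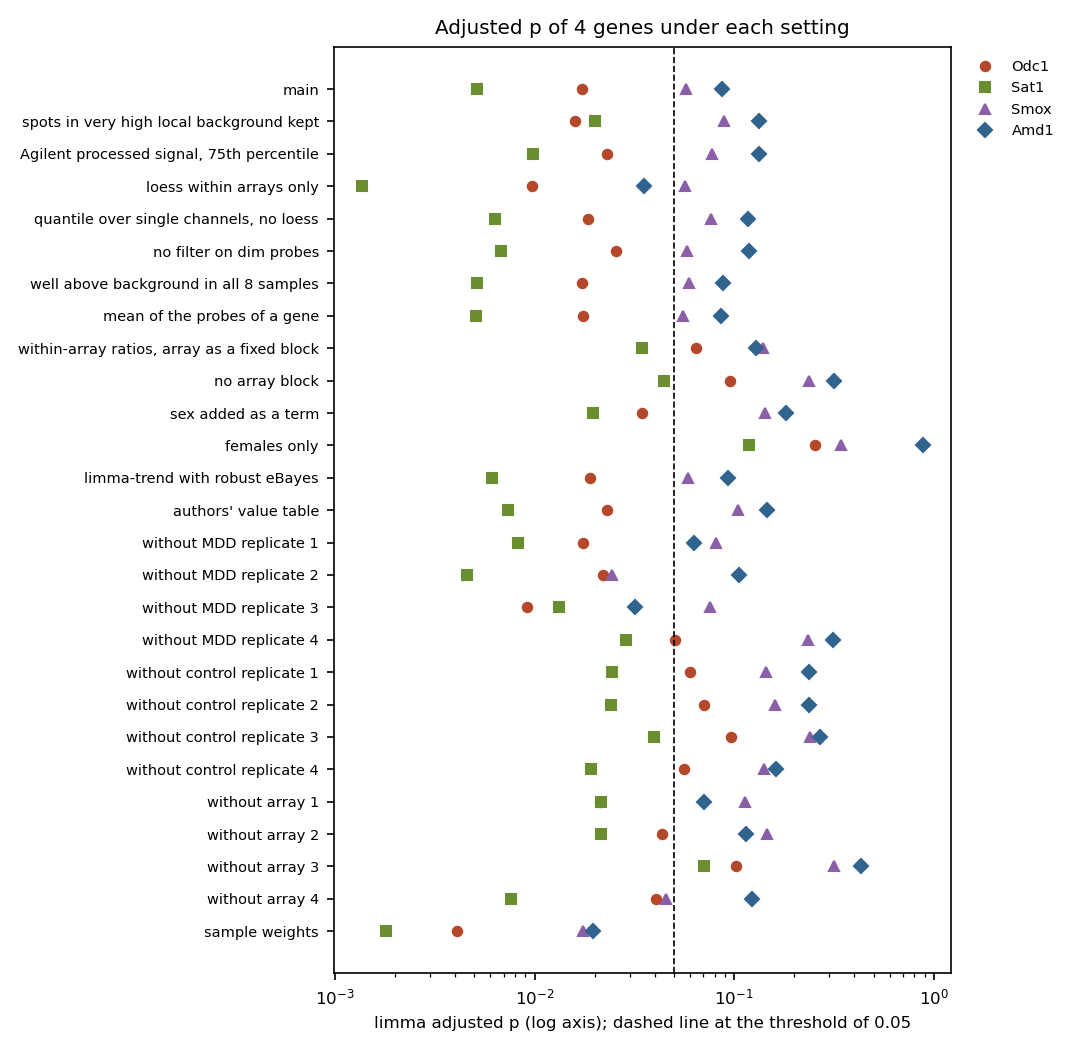
Benjamini-Hochberg adjusted p from limma (log axis) of Odc1, Sat1, Smox and Amd1 under the setting used and 26 others, with the threshold of 0.05 as a dashed line. Sat1 is left of the line in all settings except without array 3 and females only, and Odc1 crosses it in 9 of the 26.

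The plot of adjusted p by setting places Sat1 apart from the other 3 genes. Odc1 was called under 17 of the 26 other settings with differences between 0.33 and 0.72, and Smox and Amd1 under 3 each. Those 2 genes lie right of the threshold under the remaining settings.

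Genes that supply or use the same metabolites were read from the same fit, from 5 lists holding 43 symbols, of which 40 had a probe and 29 were tested. They had 8 called genes, 5 higher and 3 lower (27.6%), against 11.1% of all genes. The calls lay mostly in the list of ornithine supply and use, where 5 of 6 tested genes were called, 3 higher and 2 lower. Its median was 0.12. The list also holds enzymes that make arginine, and Agmat, which do not act on ornithine itself.

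Arg1, the liver arginase that releases ornithine and urea from arginine, had a log2 level of 15.45, 16.23, 15.58 and 15.34 in MDD replicates 1 to 4, against 16.26, 16.50, 16.74 and 16.30 in control replicates 1 to 4. MDD replicate 2 came close to the lowest control and the other 3 were far below. Arg1 fell by 0.80 ± 0.18 on the log2 scale (limma adjusted p = 0.0279). Otc, which joins ornithine to carbamoyl phosphate in the urea cycle, fell by 0.54 ± 0.13 (adjusted p = 0.0342), again with no overlap between the groups.

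Ass1 and Asl, the consecutive enzymes that make arginine from citrulline, moved the other way. Asl had a log2 level of 15.99, 15.98, 15.08 and 16.05 in MDD replicates 1 to 4, against 14.65, 14.68, 14.50 and 14.78 in control replicates 1 to 4. It rose by 1.12 ± 0.16 (limma adjusted p = 0.00539), with MDD replicate 3 nearer to the controls than the other MDD livers. Ass1 rose by 0.77 ± 0.10 (adjusted p = 0.00431), with MDD values of 15.33, 14.99, 15.01 and 15.30 and control values of 14.09, 14.31, 14.76 and 14.38. Agmat, which can form putrescine from agmatine without ornithine decarboxylase, rose by 0.42 ± 0.10 (adjusted p = 0.0312). Oat, the remaining gene tested, was not called, and Arg2 was too dim to be tested.

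Asl was called under 25 and Ass1 under 24 of the 26 other settings, and Arg1, Otc and Agmat under 14, 14 and 13. The call of Arg1 was lost without MDD replicate 1 (adjusted p = 0.0573) or 4 (0.129) and without control replicate 1 (0.0528), 2 (0.114) or 3 (0.119), and without array 2 its difference was -0.49 (0.0736). That of Otc was lost without MDD replicate 1 (adjusted p = 0.0790) or 4 (0.148) and without control replicate 2 (0.142) or 3 (0.165). That of Agmat was lost without MDD replicate 4 (adjusted p = 0.132) and without control replicate 1 (0.0831), 2 (0.132), 3 (0.114) or 4 (0.0891). With every sample kept, Arg1, Otc and Agmat also lost their calls with the array as a fixed block (limma adjusted p = 0.110, 0.133 and 0.116). The same held with no block (0.0856, 0.0976 and 0.122) and with sex as a term (0.0645, 0.0846 and 0.0588). With the signal processed by the Agilent software, Otc (0.0584) and Agmat (0.0577) were not called. Asl, Ass1, Arg1, Otc and Agmat kept their direction under every setting run. Without array 3, 1 of the 29 linked genes was called, namely Asl.

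**Figure D4:**
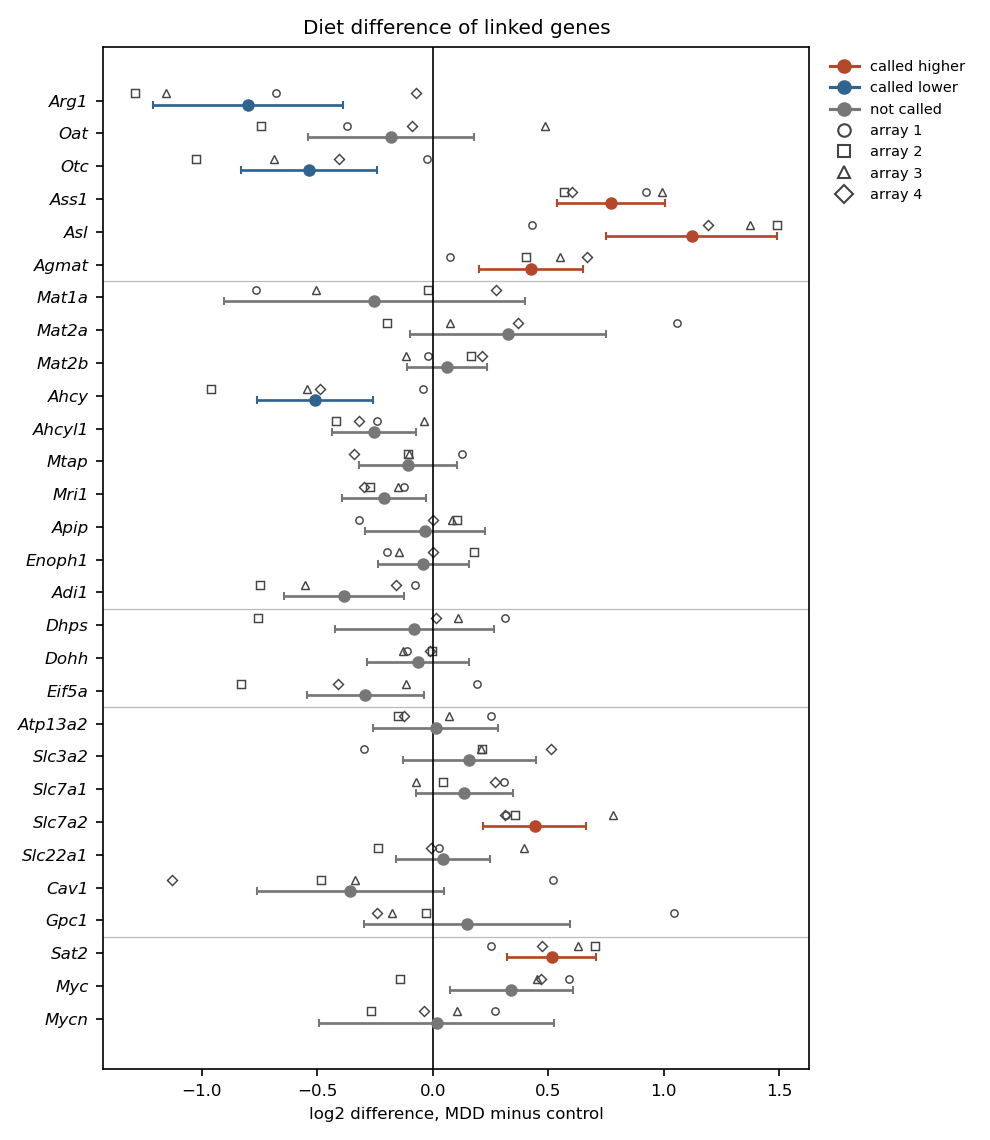
Log2 difference, MDD minus control, with its 95% confidence interval from limma for the 29 linked genes tested, and the ratio on each of the 4 arrays as open symbols. Grey lines separate, from the top, ornithine supply and use, methionine and methylthioadenosine salvage, hypusine, transport, and other polyamine enzymes and regulators. Called genes are coloured, and 5 of the 8 lie in the top block.

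The plot of linked genes shows mostly small negative differences in the block of methionine and methylthioadenosine salvage. It joins genes that make S-adenosylmethionine or clear S-adenosylhomocysteine to those of the salvage pathway. That pathway recovers the sulfur of the donor after its aminopropyl group is used. In the whole block 0 of 10 genes were called higher and 1 lower, with a median of -0.16. The gene called, Ahcy, is not one of the salvage pathway. Ahcy, which clears the S-adenosylhomocysteine that methylation leaves, fell by 0.51 ± 0.11 (limma adjusted p = 0.0235), with MDD values of 14.91, 15.36, 15.53 and 15.18 and control values of 15.58, 15.73, 15.87 and 15.85. The highest MDD liver, replicate 3, was just under the lowest control. Its call was lost without MDD replicate 4 (adjusted p = 0.112) and without control replicate 1 (0.0575), 2 (0.107) or 3 (0.131). It was also lost with the array as a fixed block (adjusted p = 0.104), with no block (0.0885), with sex as a term (0.0657) and without array 2 (0.0988), and in all Ahcy was called under 16 of the 26 other settings. Adi1, a dioxygenase of the salvage pathway, had a difference of -0.38 ± 0.11 that did not pass (adjusted p = 0.0655), although its groups did not overlap. It passed without MDD replicate 2 (adjusted p = 0.0288), without control replicate 4 (0.0395), without array 4 (0.0227) and with sample weights (0.0338), and it was -0.24 without array 2 (0.251).

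Hypusine, the spermidine-derived amino acid of the translation factor Eif5a, is made by Dhps and Dohh. None of the 3 genes tested was called by limma, and 1 had an unadjusted p under 0.05, namely Eif5a at -0.29 ± 0.11 (adjusted p = 0.130). Its MDD values were 12.91, 13.40, 13.70 and 13.69, against 13.51, 13.80, 13.74 and 13.81 in the controls, so that MDD replicate 1 was lowest and the groups overlapped. Without MDD replicate 1 the Eif5a difference was -0.17 (adjusted p = 0.246) and without array 2 it was -0.19 (0.278), while without MDD replicate 2 it was called (0.0416). Dohh had -0.06 ± 0.10 (adjusted p = 0.710), and 0.16 among females. The median of the 3 genes was -0.08.

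Among 7 transport genes tested 1 was called. Slc7a2, a carrier of arginine, ornithine and lysine, rose by 0.44 ± 0.10 (limma adjusted p = 0.0265). Its log2 level was 8.34, 8.40, 8.09 and 8.50 in MDD replicates 1 to 4, against 7.78, 7.72, 7.99 and 8.09 in control replicates 1 to 4. The lowest MDD value was barely above the highest control. The call was lost without MDD replicate 4 (adjusted p = 0.125) and without control replicate 1 (0.0871), 2 (0.111), 3 (0.123) or 4 (0.0508). It was also lost with the array as a fixed block (adjusted p = 0.0953), with no block (0.124), with sex as a term (0.0710) and without array 2 (0.0875). With spots in very high local background kept the difference was 0.25 (adjusted p = 0.129), and in all Slc7a2 was called under 14 of the 26 other settings. Cav1, the caveolin of the endocytic route proposed for polyamines, was at -0.36 ± 0.18 (adjusted p = 0.235) and passed with sample weights alone (-0.57, 0.0493). It was -0.12 without MDD replicate 4 (0.677) and -0.23 without control replicate 4 (0.508). The median of the 7 genes was 0.14.

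Of the remaining enzymes and regulators 3 were tested. Sat2, a relative of Sat1 whose main substrate is held to be thialysine rather than spermidine, rose by 0.52 ± 0.09 (limma adjusted p = 0.00871). Its log2 level was 10.84, 10.79, 10.67 and 10.92 in MDD replicates 1 to 4, against 10.42, 10.29, 10.14 and 10.32 in control replicates 1 to 4, with a clear gap between the groups. It lost its call in 4 of the 26 other settings, which were without control replicate 3 (adjusted p = 0.0663), without array 3 (0.115), within-array ratios (0.0699) and females only (0.164). Myc, a transcription factor known to act on Odc1, was at 0.34 ± 0.12 and did not pass (adjusted p = 0.1002), except without MDD replicate 1 (0.0449) and without array 2 (0.0452). It was 0.19 without MDD replicate 2 (0.102). The median of the 3 was 0.34. Oaz3, Azin2, Satl1 and Aoc1 were too dim to be tested.

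Over the 8 samples Cpt1a, which admits fatty acids to mitochondria, had the highest Pearson correlation with Odc1 among 10504 genes with a symbol (r = 0.992). For Sat1 the most alike were Prkar1b, a regulatory subunit of protein kinase A (r = 0.987), and Mutyh, a DNA repair glycosylase (r = 0.978). All 3 were called higher in MDD livers, Cpt1a by 1.46, Prkar1b by 0.70 and Mutyh by 0.63 on the log2 scale. Cpt1a and Prkar1b were called under 25 of the 26 other settings each and Mutyh under 22. The settings that took the call from Mutyh included leaving out control replicate 3 (limma adjusted p = 0.0666), no array block (0.0654) and females only (0.0950). The diet groups and the 4 arrays are shared by all these values, so that the correlations describe likeness only.

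Median spot signals were between 152.5 and 299 over median backgrounds between 33 and 58, between 59.1% and 65.5% of spots were well above background, and no spot was saturated. The highest local background was 67824.5 in control replicate 2 and 257955 in MDD replicate 4, both on array 3, and at most 588 in the other samples. No polyamine gene spot was among those left out for high background. With those spots kept, the difference was 0.44 for Odc1 (limma adjusted p = 0.0159) and 0.50 for Sat1 (0.0201). The 10 hepatocyte markers were above background in every sample, with 1 called higher and 5 lower in MDD livers. Their summed intensity was 1220960 to 1813960 in MDD livers and 1831210 to 2309540 in control livers, without overlap. Of 8 markers of dividing cells 0 were called higher and 4 lower by limma, and their summed intensity was 7737 to 18378 in MDD livers and 17110 to 26332 in control livers. Over all genes 6.55% were called lower. The neutrophil markers were called lower in 4 of 5 cases, with sums of 1527 to 2133 in MDD livers and 2272 to 3615 in control livers. Erythroid markers summed to 155050 to 374952 in MDD livers and 304178 to 537885 in control livers, with 1 of 6 called, Tfrc, which was higher. The skeletal muscle markers summed to 7289 in MDD replicate 3, against 1059 to 1162 in the other MDD livers and 982 to 1296 in control livers. Without MDD replicate 3 the differences of Odc1 and Sat1 were 0.71 (adjusted p = 0.00918) and 0.56 (adjusted p = 0.0133). The part of the other marker lists in the differences of the polyamine genes was not tested.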

How the data were processed

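RNA of 8 rat livers, 4 MDD and 4 control, was hybridised to 4 Agilent 2-colour arrays of 1 slide, each carrying 1 liver of each group. The MDD liver was in Cy3 on arrays 1 and 3 (MDD replicates 3 and 4, with control replicates 1 and 2) and in Cy5 on arrays 2 and 4 (MDD replicates 1 and 2, with control replicates 3 and 4). Samples whose deposited spot data were the same were taken to share an array. Replicate numbers follow the order of the samples and pair no animals.

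The deposited values are spot intensity readings made, per the file headers, with Agilent Feature Extraction 10.7.1.1, and carry probe positions in the rn4 build. A table of normalized intensity values deposited by the authors, on a linear scale and with a normalization not given in the sources used here, served as an alternative. Its medians lay between 183.8 and 192.5.

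With limma 3.58.1 in R 4.3.3, 74 spot values whose local background exceeded 5 times the channel median were left out, a step taken over from earlier work on the series. Mean signals were background-corrected (normexp, offset 50), normalized by loess within arrays and Aquantile between arrays. Control spots and spots flagged as outliers by the software were dropped, which removed 1 Amd1 spot each in MDD replicates 1, 2 and 4 and control replicate 4. Spots of a probe were averaged, probes well above background in at least 4 of 8 samples were kept, and the brightest probe of a gene was used. Diet and dye were fitted with the array as a random block (correlation 0.422) by lmFit and eBayes, with Benjamini-Hochberg adjustment over 14923 genes. Probes were also fitted singly. The number of arrays limits the precision. On simulated data of 14923 genes the diet test recovered 78% of 100 genes changed by 0.6 log2 units, with 13 false calls. The same run held 100 genes changed by 1 log2 unit and no other changed genes, while 1650 genes were called in the data. The share recovered therefore need not hold for this fit. The simulated noise was normal, with the same array correlation for all genes and no litters. Changes smaller than 0.6, as in the polyamine genes not called, were not simulated.

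The genes, lists and tests were chosen with earlier results of these data known. Named are all 10 polyamine genes, of each linked list the called genes or, with fewer than 2 called, the 2 with the smallest p, and the 2 genes most correlated with each called polyamine gene. One gene that this rule names is not reported here. Upstream sequences are RefSeq's on GRCr8. The alternatives were other background corrections, normalizations, probe filters and summaries, no array block or a fixed one, sex as a term, females only, robust eBayes, the authors' table and leaving out each sample or array. Sample weights were added after seeing the data.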

Additional observations from a re-analysis of the deposited data

Results flagged for a closer look

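For 1 of the 24 groups of 4 values that the 12 tested probes give, 1 sample stood apart from the others. Azin1 was at 7.74 in control replicate 1, the only male control, within a control range of 7.74 to 8.12, and the gap to the next control was 0.858 of that range, above Dixon's 95% critical value for 4 samples. Chance gives such a value in about 1 in 20 groups.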

How the results depend on the processing

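The replicate numbers were given in accession order and pair no animals, so no fit blocks on them. The array, which carries 1 MDD and 1 control liver, is a random block in the values given. With the array as a fixed block (within-array ratios) 460 genes were called in place of 1650, and without a block 388, with 1 of the 9 polyamine genes in each, Sat1, Odc1 losing its call in both. The ratios gave 1 polyamine probe. Keeping the spots in very high local background gave 955 genes, and sex as a term 812 genes and 3 linked genes. Females alone gave 40 genes and 0 of the 9 polyamine genes by limma, while 4 of the 9 had an unadjusted p under 0.05. Without array 2 there were 900 genes and 4 linked genes called. Without array 3 there were 211 genes, 1 linked gene, 0 polyamine genes and 0 of their probes by limma (3 genes and 3 probes at an unadjusted p under 0.05). Without array 4 there were 2870 genes, 5 polyamine genes and 6 of their probes. Sample weights gave 2716 genes and 4 polyamine genes. Leaving out 1 sample at a time gave 372 to 3546 genes, 1 to 6 polyamine genes, 1 to 7 of their probes and 2 to 11 linked genes. Fits on subsets hold fewer samples, and the cause of these changes was not tested. No polyamine gene changed direction in any of the 26 settings. Among the linked genes named, Dohh did, at 0.16 among females (adjusted p = 0.575). Sat1 kept its call in 24 settings and Odc1 in 17. The females-only fit used the array correlation of the 8 samples.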
